A study of Homo sapiens with 12 samples.

Results

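The genes described are 10 secreted glycoproteins of the extracellular matrix, THBS1, THBS2, SPARC, TNC, FN1, TGFBI, CCDC80, EFEMP1, AEBP1 and POSTN, out of 57773 genes in the deposited table. They were found by gene symbol, and they had been chosen by their FPM levels across these same 12 libraries, that is, by differences between the siRNA groups. Every difference given for them below therefore describes these libraries and is no independent test. The study sequenced total RNA, depleted of ribosomal RNA, from ES-2, an established ovarian cancer cell line. The cells received control siRNAs (siC) or siRNAs directed at 1 of 3 genes, IGF2BP1 in the group siI1, IGF2BP2 in siI2 and IGF2BP3 in siI3, which encode RNA-binding proteins that influence the stability, transport and translation of mRNAs. There were 3 libraries in each of the 4 groups, no other agent or allele is labelled, and one protocol label calls the cells parental. Nothing in the labels says whether the libraries of a group are separate cultures, and p-values then measure only the spread between these libraries, which may be technical.

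Matricellular proteins are secreted into the matrix but serve less as scaffold than as signals: thrombospondins, SPARC and tenascin-C bind cell surface receptors, growth factors and collagen, and they change how firmly a cell adheres. Adhesive glycoproteins such as fibronectin form fibrils that cells grip through integrins, often through the tripeptide RGD. In ovarian carcinoma, matrix of this kind comes from stromal cells as well as from tumour cells, and it lies in the path of tumour cells that settle on the peritoneum.

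Levels are given in FPM, fragments scaled for the depth of each library, and 3 reads were worth 0.32 to 0.73 FPM. The libraries held 3299360 to 11304060 reads, and no pair of replicates was as alike as 1 library counted over again would be (chi-square over its degrees of freedom, 8.07 to 86.15). The targeted mRNA was lower in its own knockdown: IGF2BP1 by 1.89, IGF2BP2 by 2.55 and IGF2BP3 by 2.19 on the log2 scale, and the 3 knockdown libraries were the 3 lowest of 12 each time. Levels followed the GC content of transcripts differently in siC replicates 1 and 3 (slopes of -0.459 and -0.432, log2 per 10 points of GC) than in siC replicate 2 (0.025) and the 9 knockdown libraries (-0.093 to 0.211). A value corrected for GC content and transcript length is given where the correction makes or ends the call of a member against siC. It is also given where the correction ends a printed call of another gene against siC, or moves a printed called value by over 1.5 times. Calls that the correction makes for other genes are mostly left out, such as FBN1 and IGFBP7 in siI2 and LTBP3, DDR1 and KRT7 in siI3. The signal recognition particle RNA took 11.02% to 15.3% of reads in siC and 15.1% to 28.3% in the knockdowns, and its part in the differences below was not tested. Of the epithelial and ovarian markers, KRT7, KRT8 and KRT18 were above 3 reads in every library, which is 3 of 10, while EPCAM and CDH1 stayed at or below 1.10 FPM and PAX8 at or below 2.91 FPM. That the cells are an ovarian cancer line is taken from the labels, and these marker levels do not test it.

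The series concerns miRNA-directed control, and 3′ UTRs of these genes hold seed matches of several families, so examples from 4 families are shown first, the choice being one of illustration. A site here is a 7mer complementary to bases 2 to 8 of the miRNA, searched on the sense strand for 10 families in 1 annotated 3′ UTR per gene (GENCODE release 29, build GRCh38). Capitals mark the seed in the miRNA, from RefSeq, and the paired 7mer in the site. The miR-29 family is known for its sites in collagen and other matrix mRNAs. It had a match in THBS2, not shown, and in SPARC at chr5:151661377-151661398 and EFEMP1 at chr2:55866752-55866773, the shown pair on the minus strand.
miR-29a-3p: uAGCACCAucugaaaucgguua
SPARC: gagattggcccattTGGTGCTg
EFEMP1: atgatgatcttctgTGGTGCTt
This 7mer stood in 14.5% of the 11240 3′ UTRs of tested genes. Among UTRs between 0.8 and 1.2 times as long it stood in 20.4% for the length of SPARC and 11.4% for that of EFEMP1.

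The miR-200b and miR-200c seed, known for its sites in the ZEB mRNAs and in fibronectin, had matches in FN1 at chr2:215361303-215361324 and chr2:215361017-215361038 on the minus strand. It also had one in TGFBI at chr5:136063532-136063553 and one in THBS1 at chr15:39598847-39598868, both on the plus strand.
miR-200b-3p: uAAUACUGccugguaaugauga
FN1 first site: tattcaataccgctCAGTATTt
FN1 second site: ttatcaatttttccCAGTATTt
TGFBI: tggaaaaggagcttCAGTATTg
THBS1: tgtagaaaagcctcCAGTATTa
Of all the UTRs, 17.3% held this 7mer, and of those of like length 11.6% for FN1, 6.79% for TGFBI and 40.5% for THBS1. THBS1, FN1 and TGFBI are also the 3 members called lower in siI3, as given below. In siI1, by contrast, THBS1 was called higher and FN1 lower. Any part of these matches in the differences was not tested.

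THBS1 further held a pair of miR-221 seed matches whose windows overlap, at chr15:39596141-39596162 and chr15:39596156-39596177, both on the plus strand. The miR-19 seed matched in 5 members, THBS1, SPARC, TNC, CCDC80 and POSTN, whose levels did not run in 1 direction. Shown are the matches in THBS1 at chr15:39597218-39597239 (plus strand), SPARC at chr5:151662306-151662327 and TNC at chr9:115020964-115020985 (both minus strand).
miR-221-3p: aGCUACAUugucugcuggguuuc
THBS1 first site: tggcttcattctagATGTAGCt
THBS1 second site: tgtagcttgtgcagATGTAGCa
miR-19a-3p: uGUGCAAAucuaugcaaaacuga
THBS1: atttttatataatgTTTGCACa
SPARC: aaacacattatgctTTTGCACa
TNC: ctgtgatttctttcTTTGCACc
The miR-221 7mer stood in 8.05% of all UTRs and 20.8% of those of the length of THBS1, and it also matched in THBS2. The miR-19 7mer stood in 13.9% of all, and in 32.6%, 22.3% and 5.21% of those of the length of THBS1, SPARC and TNC. Other families also matched in more than 1 member: miR-17/20 in SPARC, CCDC80 and THBS2, miR-21 in THBS1, THBS2 and TGFBI, and miR-145 in FN1 and CCDC80. CCDC80, with a 3′ UTR of 8.623 kb, held 9 sites of 4 families, and AEBP1, with 0.299 kb, held none. No member held the let-7 7mer CTACCTC. A match describes the letters and is not a measured site, and miRNA levels were not analysed here.

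Thrombospondin-1, THBS1 (ENSG00000137801), is a trimeric matricellular protein that binds CD47 and integrins and can activate latent TGF-beta. It was at 145.4, 140.8 and 140.9 FPM in siC, at 351.6, 309.3 and 351.1 in siI1, at 324.3, 283.2 and 322.5 in siI2 and at 58.23, 56.15 and 47.67 in siI3. The siI1 and siI2 libraries lay above every siC library and overlapped each other, and the siI3 libraries lay below all the rest. Called here means an adjusted p below 0.05 in limma's test on log2(FPM + 1) over all 13782 genes tested. THBS1 was called higher in siI1 (log2 fold change 1.24, SE 0.16, limma adjusted p = 4e-04) and in siI2 (1.11, SE 0.16, limma adjusted p = 0.00398). In siI3 it was called lower (-1.39, SE 0.16, limma adjusted p = 0.000275). Between the knockdowns, siI1 exceeded siI3 by 2.62 and siI2 exceeded siI3 by 2.50 on the log2 scale, with 95% intervals of 2.28 to 2.97 and 2.16 to 2.85. Its exons overlap those of FSIP1 on the other strand, which lay at 0 to 1.21 FPM, and those of AC037198.2, also on the other strand, for which no level was available. The paralog THBS2 (ENSG00000186340) had 60 reads over the 12 libraries, 1 to 13 in each. It did not pass the filter on low values, its highest library was siI3 replicate 3 at 2.304 FPM, and the 4 groups overlapped.

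SPARC (ENSG00000113140), also called osteonectin, binds collagen and calcium and loosens cell adhesion. It was at 527.5, 749.9 and 601.8 FPM in siC and at 2325, 2293 and 2307 FPM in siI1. The other knockdowns gave 1165, 886.8 and 1073 FPM in siI2 and 757.7, 841.2 and 688.6 FPM in siI3. The siI1 libraries stood far above all others, siI2 lay wholly above siC, and siI3 overlapped siC. Against siC, SPARC was called higher in siI1, by 1.90 (SE 0.21), and siI1 was also called higher than siI2 (1.16, SE 0.21, limma adjusted p = 0.00601) and than siI3 (3.03-fold, limma adjusted p = 0.000132). In siI2 the log2 difference from siC was 0.74 (SE 0.21, limma adjusted p = 0.0779), and with the correction it was 0.98 and called (limma adjusted p = 0.0237). In siI3 it was 0.29 (SE 0.21), with a 95% interval of -0.15 to 0.74. CLMAT3, on the other strand of SPARC, lay at 1.92 to 8.96 FPM.

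Tenascin-C, TNC (ENSG00000041982), is a many-armed matricellular protein of developing and injured tissue that opposes cell spreading on fibronectin. Its levels were 174.4, 209.8 and 166.4 FPM in siC, 124.5, 118.7 and 123.6 in siI1, 255.7, 224.4 and 235.4 in siI2 and 537.6, 455.2 and 371.8 in siI3. No groups overlapped, and they ran in the order siI1, siC, siI2, siI3. TNC was called higher in siI3 against siC (1.30, SE 0.18, limma adjusted p = 0.00125), and lower in siI1 than in siI2 (-0.96, SE 0.18) and siI3 (-1.87, SE 0.18). The differences from siC of -0.58 in siI1 (limma adjusted p = 0.0588, and -0.77 and called after the correction) and 0.38 in siI2 were not called. The siI2 libraries were called lower than siI3 by a log2 value of -0.91, but without siI2 replicate 2, siI3 replicate 1 or siI3 replicate 2 that call was lost (limma adjusted p = 0.0586 to 0.083). DEC1, on the other strand of TNC, lay at 0 to 1.94 FPM.

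Fibronectin, FN1 (ENSG00000115414), is the RGD protein to which cells attach through integrin alpha 5 beta 1. It stood at 139.1, 129.1 and 132.8 FPM in siC and at 155.2, 161.9 and 174.3 FPM in siI2. In siI1 it was at 55.59, 50.69 and 49.06 FPM, and in siI3 at 61.88, 44.72 and 71.06 FPM. The siI1 and siI3 libraries overlapped each other and lay far below the other groups, and siI2 lay above siC. FN1 was called lower in siI1 (-1.35, SE 0.18, limma adjusted p = 0.000435) and in siI3 (-1.19, SE 0.18, limma adjusted p = 0.00241). The corrected value in siI3 was smaller, at -0.74 (limma adjusted p = 0.0191). In siI2 the difference was 0.29 (SE 0.18, limma adjusted p = 0.355) and 0.71 after the correction (limma adjusted p = 0.0487). Between the knockdowns, siI1 was lower than siI2 by 1.64 (95% interval of the log2 difference -2.03 to -1.25).

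TGFBI (ENSG00000120708), a secreted adhesion protein with fasciclin domains that binds collagen and integrins, is induced by TGF-beta. Its values were 126.7, 128.7 and 97.73 FPM in siC, 183.1, 184.7 and 173.7 in siI1, 133.7, 129.5 and 86.81 in siI2 and 28.06, 21.85 and 28.88 in siI3. The siI3 libraries were the lowest and the siI1 libraries the highest, with no overlap, while siI2 and siC overlapped. TGFBI was called lower in siI3 (-2.12, SE 0.20, limma adjusted p = 4.91e-05), to 22.3% of the siC mean. It was not called in siI1 (0.62, SE 0.20, limma adjusted p = 0.0646, and 0.58 and called after the correction) or in siI2 (-0.03, 95% interval -0.45 to 0.40). Periostin, POSTN (ENSG00000133110), built of the same kind of domains, had 7 reads in all 12 libraries together, 0 to 4 in each, and was not tested.

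EFEMP1 (ENSG00000115380) encodes fibulin-3, a glycoprotein of elastic and basement membrane matrix. It was at 4.986, 3.02 and 4.061 FPM in siC, at 24.07, 37.1 and 31.62 in siI1, at 7.027, 8.269 and 10.67 in siI2 and at 1.123, 1.143 and 2.835 in siI3. No groups overlapped, and the order was siI3, siC, siI2, siI1. It had the widest range of the tested members, 33.1-fold from the lowest to the highest library. EFEMP1 was called higher in siI1 (2.67, SE 0.30, limma adjusted p = 7.76e-05), and it was called in each comparison between knockdowns, with siI1 above siI3 by 3.60 (95% interval 2.97 to 4.23). Against siC, the difference was 0.95 in siI2 (limma adjusted p = 0.0996, and 1.32 and called after the correction) and -0.93 in siI3 (limma adjusted p = 0.0552, and -0.50 after the correction). The smallest library count was 8 reads, and the pseudocount of 1 FPM understates changes at this level.

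CCDC80 (ENSG00000091986), a secreted protein that binds matrix, was at 15.42, 17.25 and 14.08 FPM in siC, at 38.36, 35.18 and 37.95 in siI1, at 36.62, 35.28 and 46.31 in siI2 and at 73.53, 76.86 and 47.49 in siI3. All knockdown libraries lay above all siC libraries, and siI3 lay above siI1 and siI2. CCDC80 was called higher in siI1 (1.21, SE 0.21), siI2 (1.28, SE 0.21) and siI3 (1.99, SE 0.21), with limma adjusted p-values of 0.0027, 0.00711 and 0.00013. Without siC replicate 3 the siI2 call was lost (limma adjusted p = 0.0556). The call of siI1 below siI3 (-0.78, SE 0.21, limma adjusted p = 0.0314) was lost without any 1 of siI1 replicates 1, 2 and 3 or of siI3 replicates 1 and 2 (limma adjusted p = 0.093 to 0.156).

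AEBP1 (ENSG00000106624) encodes a collagen-binding protein, ACLP, that assists collagen fibril assembly. It was at 14.15, 24.16 and 19.76 FPM in siC, at 39.29, 43.34 and 32.82 in siI1, at 43.44, 36.38 and 42.43 in siI2 and at 53.18, 52.85 and 35.44 in siI3. The 9 knockdown libraries lay above the siC libraries and overlapped among themselves. AEBP1 exons overlap those of MIR4649 on the same strand, for which no level was available. AEBP1 was called higher in siI1 (0.98, SE 0.23), siI2 (1.06, SE 0.23) and siI3 (1.25, SE 0.23), with limma adjusted p-values of 0.0169, 0.0296 and 0.00711. Its transcript is the richest in GC of the members, at 62.4%, and the corrected values were smaller: 0.57 (limma adjusted p = 0.0511), 0.73 and 0.83. The siI1 call was lost without siC replicate 1 or 3 or siI1 replicate 1 or 2 (limma adjusted p = 0.0525 to 0.114). The siI2 call was lost without siC replicate 1 or 3, siI1 replicate 1 or siI2 replicate 1 or 3 (limma adjusted p = 0.0545 to 0.189), and the siI3 call was lost without siC replicate 1 (limma adjusted p = 0.0546).

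**Figure D1:**
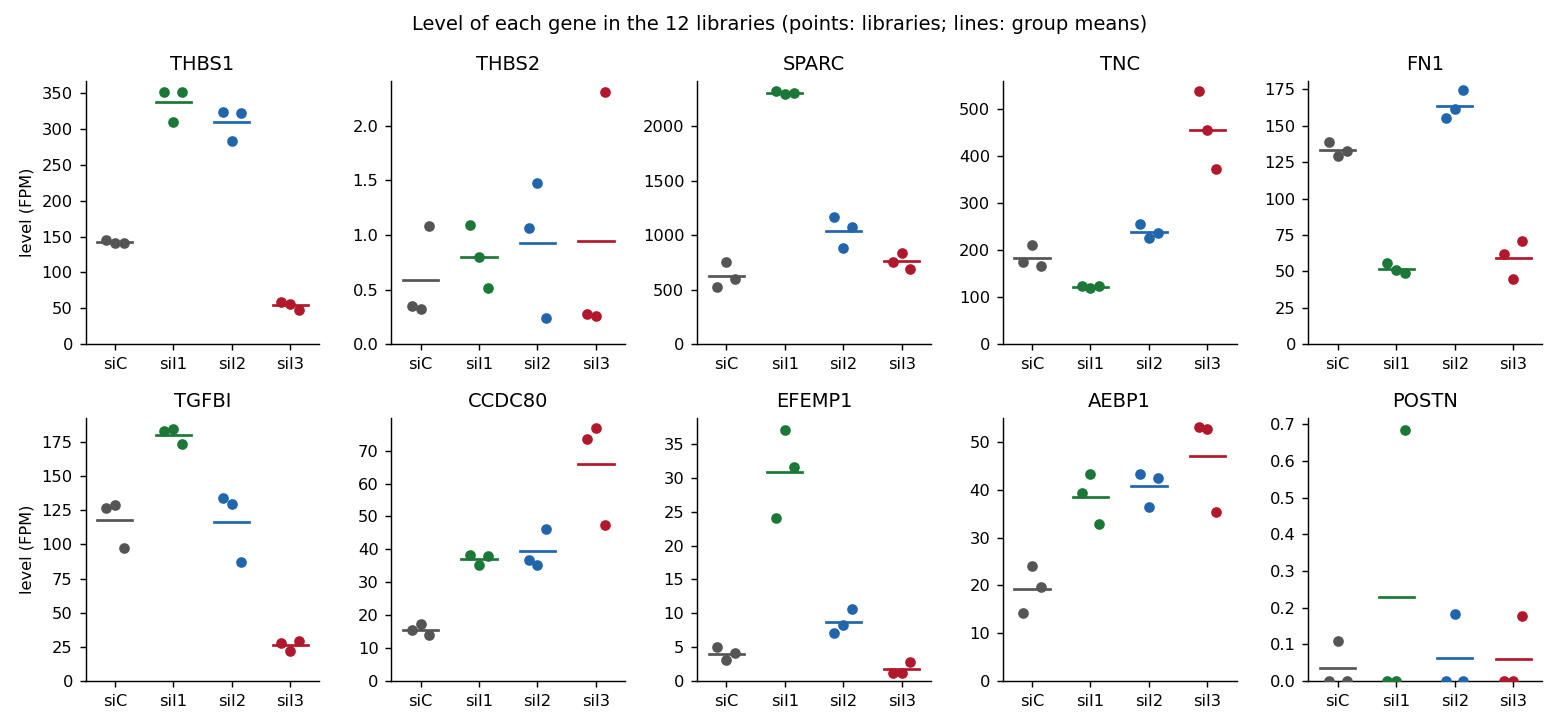
Level in FPM (vertical axis, from 0, scaled per gene) of each of the 10 genes in the 3 libraries of each siRNA group (points), with group means (lines). SPARC and EFEMP1 stand highest in siI1, TNC and CCDC80 highest in siI3, THBS1 and TGFBI lowest in siI3, and FN1 low in both siI1 and siI3. THBS2 and POSTN stay under 2.5 FPM.

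Of the 10 members, 8 passed the filter on low values. In siI1, 5 were called higher, beside 3.77% of all genes tested, and 1 lower, beside 4.42% (8.18% in either direction). In siI2, 3 were called higher, beside 0.573% of all genes, and 0 lower, beside 0.936% (1.51% in either direction). At an unadjusted p under 0.05 the counts were 5 and 0, with edgeR 4 and 0, and with DESeq2 6 and 0. Without siC replicate 3 only 1 member was called in siI2. In siI3, 3 were called higher, beside 2.3% of all genes, and 3 lower, beside 8.29% (10.6% in either direction). The median log2 difference of the 8 members was 1.09 in siI1, 0.84 in siI2 and -0.32 in siI3 (0.05 in siI3 after the correction), beside medians of -0.05, -0.09 and -0.05 over all genes tested. The 3 comparisons share the siC libraries, so a direction common to them is not independent. The shares of all genes move with the library left out: the 1128 genes called in siI1 were 268 without siC replicate 1 and 2602 without siC replicate 2. The 208 in siI2 were 28 without siC replicate 3 and 1572 without siC replicate 2, and the 1460 in siI3 were 89 without siC replicate 1 and 2824 without siC replicate 2. The members were chosen with these differences known, and nothing is read from the counts.

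**Figure D2:**
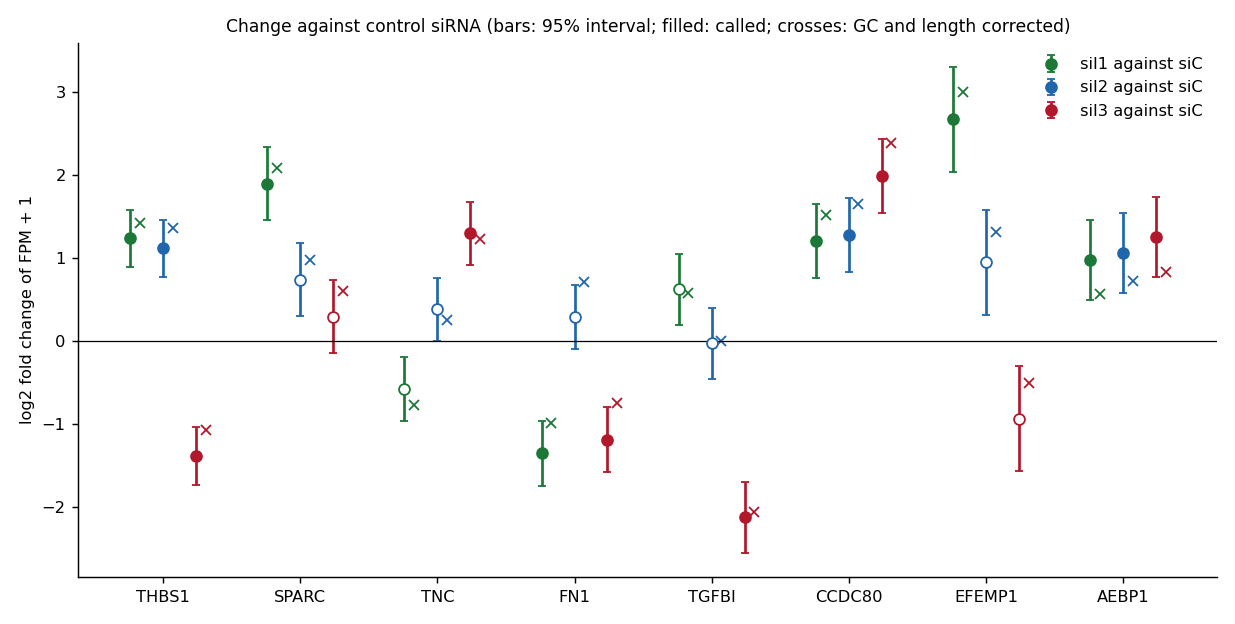
Log2 fold change of FPM + 1 against siC (vertical axis) of the 8 tested members in each knockdown, with 95% intervals from limma (filled points: called; crosses: value after correction for GC content and length). CCDC80 and AEBP1 lie above 0 in all 3 knockdowns, THBS1 at 1.24, 1.11 and -1.39, and EFEMP1 in siI1 is the highest value at 2.67.

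Between siI1 and siI2, 2 members were called higher in siI1 (SPARC and EFEMP1), beside 1.63% of all genes, and 2 lower (TNC and FN1), beside 0.769% (2.4% in either direction). Between siI1 and siI3, 4 were called higher in siI1 (THBS1, SPARC, TGFBI and EFEMP1), beside 4.57% of all genes, and 2 lower (TNC and CCDC80), beside 2.47% (7.05% in either direction). Between siI2 and siI3, 4 were called higher in siI2 (THBS1, FN1, TGFBI and EFEMP1), beside 1.26% of all genes, and 1 lower (TNC), beside 0.74% (2% in either direction). Each knockdown group enters 2 of these comparisons. In bulk RNA a change in the share of cells that express a gene and a change in its RNA per cell cannot be told apart.

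Over all 6 comparisons, 30 of 48 member values were called. Of these, 24 were called in each of the 23 alternatives in tool, scaling, pseudocount, filter, design and left-out library, and 6 were lost in at least 1. The 6 were the 3 AEBP1 calls, CCDC80 in siI2 and between siI1 and siI3, and TNC between siI2 and siI3. A further 9 of the 18 values not called were called in at least 1 alternative.

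**Figure D3:**
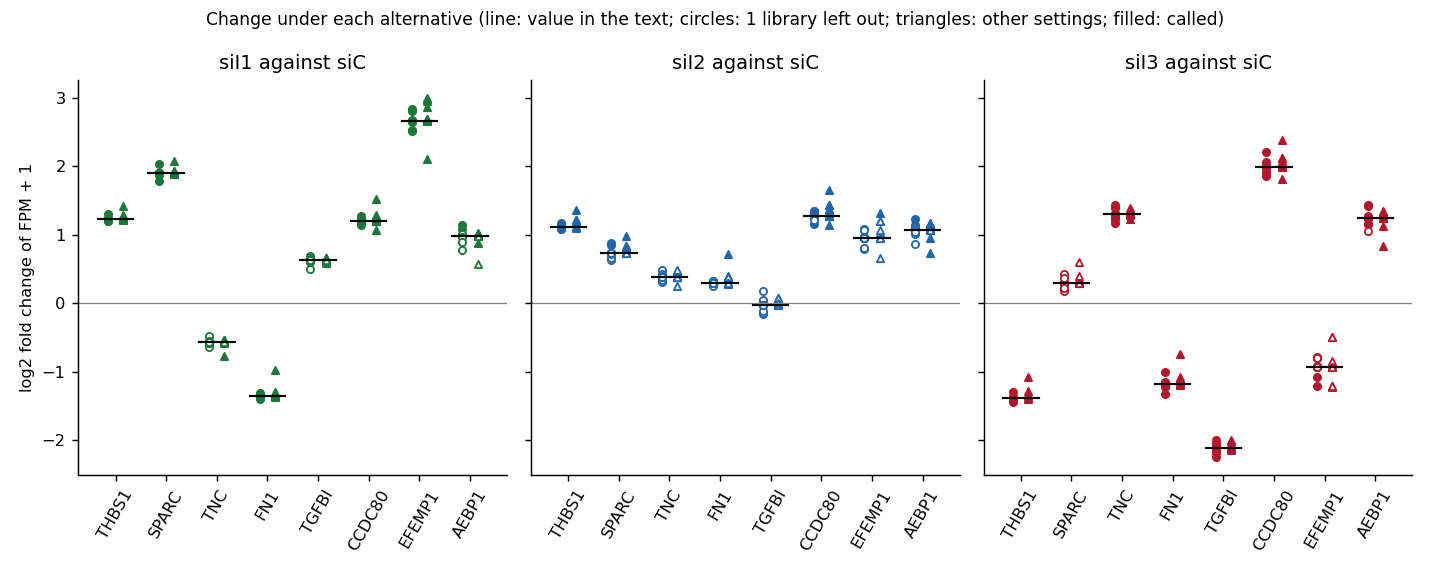
Log2 fold change against siC (vertical axis) of each tested member under every alternative, by knockdown (line: value in the text; circles: 1 library left out; triangles: other settings; filled: called). Of the 15 calls against siC, 11 were made in every alternative, and the open symbols of AEBP1 and of CCDC80 in siI2 are the losses.

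The authors' deposited table gives the same signs for the tested members. For SPARC in siI1 the authors' deposited table lists a log2 fold change of 1.88 with an FDR of 7.57e-12, and for TGFBI in siI3 -2.17 with 6.29e-11. For AEBP1 the authors' deposited table lists FDRs of 0.103 in siI1, 0.149 in siI2 and 0.0107 in siI3, so that the first pair would not be called there. For EFEMP1 in siI3 the authors' deposited table lists -1.28 with an FDR of 0.285, and for THBS2 and POSTN an FDR of 1 in every knockdown.

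Levels of different genes can be compared only per length, here as FPM per kilobase of the longest annotated transcript. In siC, SPARC led with 169 ± 30.6 FPM per kilobase (SD, n = 3), followed by TGFBI with 25.3 ± 3.72 and TNC with 24 ± 3.02, which did not differ beyond their spread. THBS1 had 18.3 ± 0.336, FN1 14.6 ± 0.554 and AEBP1 4.74 ± 1.23 FPM per kilobase. EFEMP1 with 1.33 ± 0.325 and CCDC80 with 1.25 ± 0.128 could not be ordered, and THBS2 (0.101) and POSTN (0.0107) were at the end. SPARC stayed first in every group, at 624 ± 4.43 FPM per kilobase in siI1. In siI1 and siI2 THBS1 came next, with 43.4 ± 3.1 and 39.9 ± 2.99, and in siI3 TNC did, with 59.5 ± 10.8. FN1 stood below AEBP1 in siI1 (5.65 ± 0.371 against 9.43 ± 1.30) and in siI3 (6.46 ± 1.46 against 11.6 ± 2.49), the reverse of their order in siC and siI2. In siI3 THBS1 at 6.95 ± 0.720, FN1, TGFBI at 5.64 ± 0.825 and CCDC80 at 5.31 ± 1.29 FPM per kilobase lay within each other's spread.

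**Figure D4:**
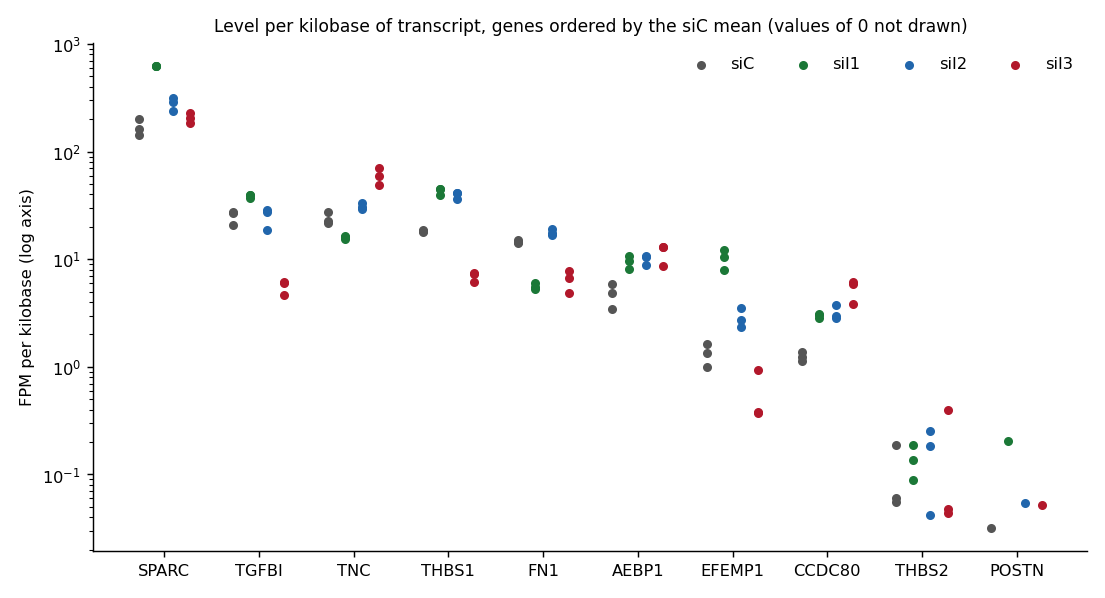
Level per kilobase of the longest annotated transcript (vertical log axis, FPM per kilobase) of each gene in the 12 libraries, coloured by group, with genes in the order of the siC mean. SPARC lies above all others in each group, and THBS2 and POSTN lie below 0.5 FPM per kilobase.

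THBS1, FN1 and TGFBI were the members called lower in siI3, and TNC and CCDC80, with AEBP1, were called higher. The promoters of 5 of these genes are shown, since AEBP1 had no entry. Each runs from 250 bases before to 50 bases after the annotated start (RefSeq, GRCh38.p14), and 8 of the 10 members had an entry, all but AEBP1 and EFEMP1. THBS1 (plus strand) and TGFBI (plus strand) are at chr15:39580829-39581128 and chr5:136028738-136029037, and FN1, TNC and CCDC80 (minus strand) are at chr2:215436019-215436318, chr9:115118108-115118407 and chr3:112641094-112641393. Capitals mark matches on either strand to the Sp1 motif GGGCGG or the TEAD motif CATTCC.
THBS1: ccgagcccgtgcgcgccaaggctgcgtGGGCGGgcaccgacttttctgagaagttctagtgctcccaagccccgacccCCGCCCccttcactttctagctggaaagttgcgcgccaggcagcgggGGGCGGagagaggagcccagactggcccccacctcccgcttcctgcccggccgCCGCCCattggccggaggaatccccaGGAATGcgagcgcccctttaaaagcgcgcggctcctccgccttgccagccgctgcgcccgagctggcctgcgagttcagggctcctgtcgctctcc
FN1: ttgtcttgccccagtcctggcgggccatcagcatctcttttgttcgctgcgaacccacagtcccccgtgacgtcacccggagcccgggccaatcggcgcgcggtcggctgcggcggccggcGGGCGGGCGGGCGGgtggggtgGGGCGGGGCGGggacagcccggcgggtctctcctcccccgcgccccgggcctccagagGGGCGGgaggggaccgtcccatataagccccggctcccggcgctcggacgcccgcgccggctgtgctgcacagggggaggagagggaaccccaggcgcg
TGFBI: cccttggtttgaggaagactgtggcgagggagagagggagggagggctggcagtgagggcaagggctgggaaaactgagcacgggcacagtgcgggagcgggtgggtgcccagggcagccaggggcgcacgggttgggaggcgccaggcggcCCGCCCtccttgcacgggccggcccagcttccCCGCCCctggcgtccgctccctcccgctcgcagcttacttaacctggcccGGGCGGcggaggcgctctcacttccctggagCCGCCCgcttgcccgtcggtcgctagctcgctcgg
TNC: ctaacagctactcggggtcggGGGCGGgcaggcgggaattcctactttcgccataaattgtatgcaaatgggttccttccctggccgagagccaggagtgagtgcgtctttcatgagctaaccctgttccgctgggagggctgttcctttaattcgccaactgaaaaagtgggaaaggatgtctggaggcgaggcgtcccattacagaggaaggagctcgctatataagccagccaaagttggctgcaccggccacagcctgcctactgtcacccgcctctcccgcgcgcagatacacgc
CCDC80: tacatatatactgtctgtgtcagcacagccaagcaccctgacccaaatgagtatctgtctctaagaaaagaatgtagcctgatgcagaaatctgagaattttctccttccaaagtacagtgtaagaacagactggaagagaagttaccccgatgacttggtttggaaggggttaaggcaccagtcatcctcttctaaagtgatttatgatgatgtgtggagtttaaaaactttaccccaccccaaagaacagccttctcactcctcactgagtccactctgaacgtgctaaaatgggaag
The Sp1 motif, bound by a broadly active factor, was found in THBS1, FN1, TGFBI and TNC and in 45.0% of 35116 promoters, with some matches in FN1 overlapping each other. CATTCC, read by the TEAD partners of YAP, was found in THBS1 at -46 to -41 on the minus strand, in SPARC at -17 to -12 and in THBS2, and in 14% of all promoters. Neither AP-1 (TGANTCA, 7.71% of promoters), the ZEB and Snail E-box CACCTG (20.6%), TATAAA (11.5%) nor the CArG box of SRF (1.29%) was found in these 5 windows. Among the other members with an entry, TATAAA was found in THBS2 and POSTN and AP-1 in POSTN. CCDC80 held none of the 6 motifs. These are letters in a window and say nothing of binding.

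Other glycoproteins of the matrix were taken as a list of 66 genes by protein class (further thrombospondins, fibulins, fibrillins, nidogens, CCN proteins, matrilins and latent TGF-beta binding proteins), of which 33 passed the filter. In siI1, 5 rose and 0 fell (8.18% of all genes called, either direction), with a median log2 difference of 0.46 beside -0.05 over all genes. FBN1, the main fibrillin of microfibrils, rose by 1.51 (SE 0.23, limma adjusted p = 0.000932). CRISPLD2, a secreted glycoprotein, rose by 1.57 (SE 0.31), NID1, a basement membrane linker of laminin and collagen IV, by 0.88, and LTBP3, which stores latent TGF-beta, by 0.83, or 0.37 and not called after the correction. FSTL1, a SPARC-related protein and the fifth of them, rose by 0.72. FBN1 and CRISPLD2 were called whichever library was left out. The count was 2 without siC replicate 1, siC replicate 3 or any 1 siI1 library, and 10 without siC replicate 2.

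In siI2, 2 of the 33 rose and 0 fell (1.51% of all genes called), with a median of 0.39 beside -0.09. They were MFAP2, a microfibril component, which rose by 1.52 (SE 0.30, limma adjusted p = 0.019), and FSTL1, by 0.94 (SE 0.21, limma adjusted p = 0.0368). The count was 0 with siI2 replicate 1 or either of siC replicates 1 and 3 left out, and 1 without siI1 replicate 1 or 3, siI2 replicate 3 or siI3 replicate 1 or 2. It was 4 without siC replicate 2 and 5 without siI2 replicate 2 or siI3 replicate 3. In siI3, 3 rose and 3 fell (10.6% of all genes called), with a median of 0.06 beside -0.05, or -0.10 after the correction. TINAGL1, a basement membrane glycoprotein, fell by 1.59 (SE 0.32, limma adjusted p = 0.011), and FBN1 fell by 0.83 (SE 0.23), or -0.61 and not called after the correction (limma adjusted p = 0.0595). IGFBP7 fell by 1.16 (SE 0.29), from 1.855, 3.127 and 2.436 FPM to 0.5613, 0.5081 and 0.5316 FPM, which is 3 or 4 reads, so its fold depends on the pseudocount. NID1 rose by 0.78, AGRN, an organizer of synapses and basement membranes, by 0.75 and LTBP4 by 0.68, the last pair being 0.24 and 0.14 and not called after the correction. The count was 0 without siI3 replicate 2, 1 without siC replicate 1, siC replicate 3 or siI3 replicate 1, and 3 without any 1 siI1 library.

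Matrix receptors, for these glycoproteins and also for collagen (DDR1), were a list of 22 genes, 18 of them tested. Their median log2 difference was 0.22 in siI1, -0.11 in siI2 and -0.36 in siI3, beside -0.05, -0.09 and -0.05 over all genes. In siI1, 3 rose and 0 fell, beside 8.18% of all genes called. ITGB5, the integrin beta subunit that pairs with alpha V, rose by 1.39 (SE 0.19, limma adjusted p = 0.000478), ITGA5, the fibronectin receptor subunit, by 0.83 (SE 0.22), and LRP1, which takes up thrombospondin complexes, by 0.82 (SE 0.20), or 0.52 and not called after the correction (limma adjusted p = 0.115). In siI2, limma called 0, beside 1.51% of all genes; at an unadjusted p under 0.05 there were 4 higher and 5 lower, edgeR called 1 and DESeq2 3. In siI3, 0 rose and 1 fell, beside 10.6% of all genes, and it was ITGB5, by 1.27 (SE 0.19, limma adjusted p = 0.00187). ITGB5 was at 108.5, 119.5 and 95.43 FPM in siC, at 305, 236.5 and 312.6 in siI1, at 189.1, 147.9 and 156.6 in siI2 and at 52.2, 43.32 and 37.21 in siI3. Its groups did not overlap, and it was called in siI1 and in siI3 whichever library was left out. The siI1 count was 1 without siC replicate 1 or 3 or siI1 replicate 1 or 3, and 7 without siC replicate 2. The siI2 count was 5 without siC replicate 2, 2 without siI2 replicate 2 and 1 without siI3 replicate 3. The siI3 count was 3 without siC replicate 2 or siI2 replicate 2 and 4 without siI3 replicate 3.

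**Figure D5:**
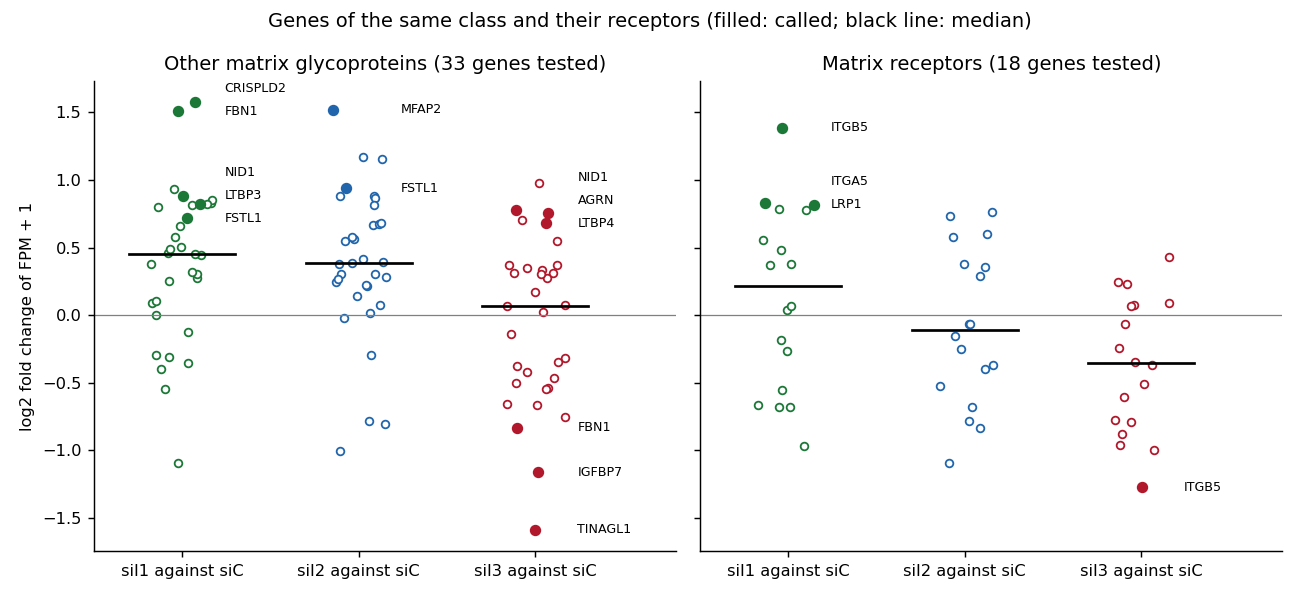
Log2 fold change against siC (vertical axis) of 33 other matrix glycoproteins (left) and 18 matrix receptors (right) in each knockdown, with called genes filled and named and the median as a black line. ITGB5 is the highest receptor in siI1 and the lowest in siI3, and the glycoprotein medians are 0.46, 0.39 and 0.06.

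Markers of cells that make such matrix in tissue were looked at beside these results. Of 5 fibroblast markers, PDGFRA alone was above 3 reads in every library, and DCN and LUM stayed at or below 1.94 FPM. PDGFRA was called lower in siI3 (-1.17, limma adjusted p = 0.0295), or -0.72 and not called after the correction (limma adjusted p = 0.076). The list summed to 5.61 to 12.6 FPM in siC, 8.23 to 12.2 in siI1, 4.90 to 9.55 in siI2 and 3.05 to 6.02 in siI3. Leukocyte markers (0 of 6 above 3 reads in every library) summed to at most 4.08 FPM, with CD3E and CD68 at or near 0. Of 4 endothelial markers found, CDH5 alone was expressed, at 54.84 to 71.82 FPM in siC and 93.74 to 149.4 FPM in the knockdowns, with VWF at or below 3.15 FPM. Mesenchymal markers (6 of 6) summed to 953 to 1133 FPM in siC, 460 to 863 in siI1, 231 to 618 in siI2 and 338 to 622 in siI3. These sums are mostly VIM, which was called lower in siI3 alone (-1.52, limma adjusted p = 0.0264), and the other markers differed: SNAI2 was called higher in siI1 (1.11, limma adjusted p = 0.0204). None of the remaining 4 was called there, with ZEB1 at -1.18, ZEB2 at -0.67, TWIST1 at 0.22 and CDH2 at 0.30, the last being 0.60 and called after the correction. Epithelial and ovarian markers (3 of 10) summed to 656 to 1055 FPM in siC, 1160 to 1467 in siI1, 816 to 1162 in siI2 and 505 to 787 in siI3. The part of the mesenchymal and epithelial sums and of CDH5 in the members' differences was not tested.

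Likeness of pattern was measured as the root mean square difference of log2(FPM + 1), each gene centred on its own mean, over the 12 libraries and among the 9319 genes whose mean reached 5 FPM. It is a description, since the libraries share their depth and GC trends. Nearest to THBS1 were GSN (0.27), which caps actin filaments, and ITGB5 (0.29). SPARC lay nearest to COL5A1 (0.15), a chain of collagen V, and MAP3K14 (0.16), and COL5A1 itself had group means of 80.4, 297, 114 and 103 FPM in siC, siI1, siI2 and siI3. For TNC the nearest was the protease ADAMTS1 (0.23), for TGFBI they were PLK2 (0.32) and ILDR2 (0.32), and for CCDC80 the GTPase RAC3 (0.25) and TXNDC5 (0.31). EFEMP1 had HEG1 (0.28) and the guidance cue SLIT3 (0.50), and AEBP1 had ADM5 (0.17) and CELSR3 (0.18). The nearest gene to FN1, SLC37A2 at 0.38, lay farther off than the nearest gene of each other member compared, and RP11.676M6.1 followed at 0.41. Among the members, THBS1 and TGFBI were each other's nearest (0.47), with 19 and 14 genes outside the members nearer. CCDC80 and AEBP1 were also each other's nearest (0.33), with 4 and 148 such genes nearer. The nearest member to FN1 was TNC at 1.02, with 8373 such genes nearer. A gene without any change would lie at 0.73 from FN1, so TNC was not like FN1 in pattern.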

How the data were processed

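Total RNA of 12 libraries was compared by siRNA group, as the titles give it. Libraries came, per the labels' protocols, from RNA without ribosomal RNA and with random priming. Per the submitters' processing notes, cutadapt 1.6, TopHat2 2.0.13, featureCounts 1.4.6 and edgeR 3.12 were used with hg19; the annotation release and strand setting were not given in the sources used here. Deposited values are, per the file headers, FPM, a signal normalized by the authors, beside the authors' log2 fold changes and FDR, an adjusted p-value. Values were whole multiples of 1 read (100% within a tolerance of 0.01), so reads were recovered and used for filterByExpr (minimum count 10), for depth and for count tests. Floors cover counting error only.

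Groups were compared with limma 3.58.1 (trend of variance on mean) on log2(FPM + 1), all 12 libraries, 1 coefficient per group, two-sided, with Benjamini-Hochberg adjustment over 13782 genes (92 spike-ins left out); log2 values of low genes are understated by the pseudocount. It was tested on simulated data. As an alternative, edgeR 4.0.16 on recovered reads called 1388, 185 and 1370 genes in siI1, siI2 and siI3 against siC, where limma called 1128, 208 and 1460; DESeq2 1.42.0 (R 4.3.3) was another. The correction subtracted from each library a loess surface (span 0.5) over GC content and transcript length, for 13361 genes. Transcripts, UTRs and lengths came from GENCODE release 29 by gene identifier.

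The members, the lists and the naming rule were chosen with earlier results of these data known. Named were all members, the targeted genes and the 2 genes nearest in pattern to each member. From each list, up to 4 called genes per direction against siC with the smallest adjusted p were named as well. FSTL1 in siI1, SPOCK1, DDR1, ITGB3, SPP1, VIM, SNAI2 and the calls of PDGFRA, KRT8 and KRT18 were added after their values were seen. A few values that the rule would name are not reported here. Same-numbered libraries of siI1 and siI2 deviated together (correlations of 0.195, 0.447 and 0.181). Those of siC and siI3 gave 0.013, 0.19 and 0.265. Differently numbered libraries could be as alike, as siI1 replicate 2 and siI3 replicate 3 were (0.425). Whether replicate numbers pair the libraries is therefore not settled by these values, and the labels do not say it. No call of a member between siI1 and siI2 changed with replicate number as a block.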

Additional observations from a re-analysis of the deposited data

How the results depend on the processing

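Depth limits THBS2 and POSTN, which lie near 3 reads, and EFEMP1 in siI3. Among member values, those near 0 changed sign: TGFBI in siI2 (-0.03) was 0.072 with edgeR, 0.065 with DESeq2, 0.068 with upper-quartile and 0.056 with RLE factors, and -0.155 to 0.171 with 1 library left out; between siI1 and siI2, CCDC80 was -0.146 to 0.046 and AEBP1 -0.174 to 0.022 with 1 library left out. The cause was not tested. Of 1104 member values under alternatives, 1031 kept direction and call. Members called in siI2 (3) were 6 with DESeq2 and 6 with the GC and length correction, and 1 to 4 with 1 library left out. Other matrix glycoproteins in siI1 (5) were 9 with edgeR, 10 with DESeq2, 8 with RLE and 8 with upper-quartile factors, 2 without a filter, 3 with the replicate block, 9 with only the 6 libraries compared and 2 to 10 with 1 library left out. In siI2 (2) they were 5 with edgeR, 6 with DESeq2, 5 with RLE and 5 with upper-quartile factors, 1 without a filter, 1 with the replicate block, 0 with the 6 libraries, 5 with the correction and 0 to 5 with 1 library left out. In siI3 (6) they were 1 without a filter, 2 with the replicate block, 2 with the 6 libraries and 0 to 9 with 1 library left out. Receptors in siI1 (3) were 5 with DESeq2, 1 without a filter, 5 with the 6 libraries and 1 to 7 with 1 library left out; in siI2 (0) 1 with edgeR, 3 with DESeq2, 1 with RLE, 2 with upper-quartile factors and 0 to 5 with 1 library left out; in siI3 (1) 4 with DESeq2, 3 with the correction and 1 to 4 with 1 library left out. Outside siI1 against siI2, same-number correlations ran from -0.455 to 0.265. The replicate block left 696, 95 and 745 genes called in siI1, siI2 and siI3 against siC. Among members it lost AEBP1 in siI2 and CCDC80 between siI1 and siI3.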

Other observations

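Genes of the same class differed between the knockdowns as well. Of the 33 other matrix glycoproteins tested, 6 were called higher in siI1 than in siI3 and 0 lower, where 4.57% of all genes tested were called higher. These were FBN1 (log2 difference 2.34, SE 0.23), CRISPLD2 (2.24), IGFBP7 (2.02), LTBP3 (1.37), TINAGL1 (2.40) and SPOCK1 (2.29-fold). All but SPOCK1 were called whichever library was left out, and SPOCK1 was called in 5 of 12 such fits. After the correction, 7 of the list were called higher and 2 lower, and with DESeq2 8 and 1. TINAGL1 was at 27.18, 19.51 and 29.06 FPM in siI1, at 8.304, 7.35 and 4.122 in siI2 and at 4.069, 2.795 and 5.139 in siI3, beside 10.67, 21.68 and 11.1 in siC. SPP1, which encodes the matricellular protein osteopontin, was lower in siI1 than in siI2 by 1.77 (limma adjusted p = 0.0235), and that call was lost without any 1 of siI1 replicates 1, 2 and 3 or of siI2 replicates 2 and 3. Among the 18 receptors, 5 were called higher in siI1 than in siI3 and 0 lower, beside the same 4.57% of all genes. After the correction the receptor counts were 8 and 1, and with DESeq2 6 and 0. The call of ITGA5 was kept in 3 of 12 fits with 1 library left out, that of ITGB3 was lost without siI3 replicate 2, and ITGB5, LRP1 and DDR1 were called in all 12. DDR1, a receptor tyrosine kinase for collagen, was one of them, higher by 1.57 (SE 0.26, limma adjusted p = 0.001) and also higher in siI2 than in siI3 by 1.37, a call lost without siI2 replicate 1 (limma adjusted p = 0.0695).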
